A study of Mus musculus with 4 samples.

Results

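Transcripts of 8 ligand genes of the transforming growth factor beta (TGF-beta) superfamily were followed across the cell types of transplanted mouse hearts. The genes were Tgfb1, Tgfb2 and Tgfb3, the activin subunit genes Inhba and Inhbb, and Gdf15, Bmp4 and Bmp6. They were chosen by symbol, and all 8 were found among the 30905 genes of the matrix. Hearts had been grafted heterotopically and were collected on day 5. GEO's labels list 2 allogeneic grafts, of strain Balb/C, and 2 syngeneic grafts, and the study's methods place all of them in C57BL/6J recipients, so the syngeneic hearts came from the recipient strain. Each graft was digested and its cells were sequenced with 10x Chromium 3' chemistry, which counts unique molecular identifiers (UMIs), 1 for each captured transcript end. The matrix pooled 4 libraries that were told apart only by the suffix, 1 to 4, of the cell barcode. Neither the labels nor the headers pair a suffix with a graft, so no library was assigned to the allogeneic or the syngeneic group, no comparison of these groups was made and no test was run. Values of the libraries are set side by side as 4 single samples.

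TGF-beta superfamily ligands are secreted dimers that bring together type I and type II serine/threonine kinase receptors, which phosphorylate Smad proteins that enter the nucleus. TGF-beta1, TGF-beta2 and TGF-beta3 are secreted in a latent complex and drive matrix production by fibroblasts, and TGF-beta1 also restrains T cells. Dimers of the inhibin beta chains encoded by Inhba and Inhbb are the activins, which signal through much the same Smads and are bound by follistatin. Bone morphogenetic proteins such as BMP4 and BMP6 signal through another Smad branch, and GDF15 is a distant member of the family whose transcript rises in many kinds of cell stress and whose known receptor, GFRAL, is found in the hindbrain.

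In the GENCODE annotation of GRCm38, the assembly also called mm10, Tgfb1 lies at chr7:25687002-25705077 on the plus strand, Tgfb2 at chr1:186622792-186705989 on the minus strand and Tgfb3 at chr12:86056745-86079041 on the minus strand. Inhba lies at chr13:16011851-16031621 on the plus strand and Inhbb at chr1:119415465-119422248 on the minus strand. Gdf15 lies at chr8:70629393-70632456 on the minus strand, Bmp4 at chr14:46383520-46390669 on the minus strand and Bmp6 at chr13:38345107-38500302 on the plus strand. Of the 8 genes, 5 overlap an annotated gene on the other strand, namely Tgfb2, Tgfb3, Inhba, Bmp4 and Bmp6, and none overlaps one on its own strand. The study used Cell Ranger, which by default counts only reads in the sense direction of a gene, and no other setting for counting is named in the sources used here.

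RefSeq promoter sequences on GRCm38.p6 were found for 7 of the 8 genes. The 250 bases before the transcript start are given for 4 of them, as pairs of close relatives whose transcripts were spread over the cell classes in unlike ways: Tgfb1 beside Tgfb2, and Inhba beside Inhbb. All run 5′ to 3′ on the strand of the gene, and capitals mark matches, on either strand, to a TATA box (TATAAA), a GC box (GGGCGG) or an E-box (CACGTG). A cAMP response element (TGACGTCA) and an AP-1 site (TGANTCA) were searched as well and had no match in the 7 windows.
Tgfb1, chr7:25686752-25687001: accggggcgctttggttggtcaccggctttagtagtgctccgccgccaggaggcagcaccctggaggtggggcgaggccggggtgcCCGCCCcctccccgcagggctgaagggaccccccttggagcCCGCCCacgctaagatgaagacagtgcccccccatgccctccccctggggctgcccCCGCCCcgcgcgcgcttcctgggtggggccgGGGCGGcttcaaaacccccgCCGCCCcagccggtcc
Tgfb2, chr1:186705990-186706239: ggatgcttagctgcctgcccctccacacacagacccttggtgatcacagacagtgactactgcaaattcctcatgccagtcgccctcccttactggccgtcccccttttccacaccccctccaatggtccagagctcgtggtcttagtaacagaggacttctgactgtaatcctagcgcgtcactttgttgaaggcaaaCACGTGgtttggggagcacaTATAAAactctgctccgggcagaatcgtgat
Inhba, chr13:16011601-16011850: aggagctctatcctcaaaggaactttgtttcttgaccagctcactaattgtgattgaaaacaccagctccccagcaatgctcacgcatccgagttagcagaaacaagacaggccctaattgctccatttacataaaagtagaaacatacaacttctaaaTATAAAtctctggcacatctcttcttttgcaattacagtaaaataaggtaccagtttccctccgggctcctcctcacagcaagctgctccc
Inhbb, chr1:119422249-119422498: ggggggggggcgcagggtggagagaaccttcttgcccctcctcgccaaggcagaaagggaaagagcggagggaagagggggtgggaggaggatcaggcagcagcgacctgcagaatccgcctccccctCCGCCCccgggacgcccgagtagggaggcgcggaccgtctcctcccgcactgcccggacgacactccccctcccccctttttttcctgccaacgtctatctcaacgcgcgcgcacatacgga
G and C made up 75.2% of the Tgfb1 window and 68.0% of the Inhbb window, against 53.6% for Tgfb2 and 43.2% for Inhba. The median over all 32851 promoter windows of this length was 52.4%. The Tgfb1 window held 5 GC boxes and the Inhbb window held 1, and neither held a TATA box. The Tgfb2 window held a TATA box that began 31 bases before the start and an E-box that began 51 bases before it, and the Inhba window held a TATA box that began 91 bases before the start. Over all windows, TATAAA was present in 12.4%, GGGCGG in 32.7%, CACGTG in 6.02%, TGACGTCA in 1.55% and TGANTCA in 6.75%, and no matches in the windows of the ligand genes overlapped. A match is a run of letters and not a shown binding site.

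After filters, 42395 of 53824 cells were used, between 9358 and 12496 in each library, with a median of 4571.5 to 11897 UMIs per cell. The libraries shared 308 barcodes, 40 to 60 for each pair. Clusters were built without the 8 ligand genes and without the other genes of the pathway, so that their levels did not set the clusters, and were named only from marker lists. Of 27 clusters, 22 were named, in 10 classes, and 5 with 4933 cells stayed unnamed. Of the 3117 granulocyte-like cells, 2756 came from library 2. Granulocyte markers were spread over library 2: their summed level in the endothelial-like class was 1834.5 CPM there, where CPM is UMIs per 1000000 UMIs of the cells in question, against 28.4 to 91.6 CPM in the other libraries. The T/NK-like cells of library 2, 163 in number, carried 1056 CPM of endothelial and 2429.5 CPM of granulocyte markers beside 1667 CPM of their own, and 157 of them fell in a subcluster with all 8 endothelial markers. Their ligand levels are therefore given beside those of the other classes of library 2, and the part of such transcripts in any level was not tested. The total for CPM leaves out mitochondrial UMIs, and each level is given with a 95% exact Poisson interval. The intervals cover counting error only: there are no replicates of a named group, and UMIs of 1 cell are not independent. Levels are not divided by transcript length and are mostly compared within a gene, between cells. Where genes are set beside each other, their UMIs are compared as counted, with no correction for differences in capture between genes.

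Tgfb1 was the ligand present in most cells, with 88034 UMIs in 24934 of the 42395 cells. Inhba had 37552 UMIs and Gdf15 36450 UMIs, but these lay in only 6121 and 5556 cells. Endothelial-like cells, 35.5% of cells with 25.5% of UMIs, held 77.1% of Inhbb UMIs, 55.1% of Bmp6, 47.0% of Bmp4 and 43.2% of Gdf15. Fibroblast-like cells, with 23.8% of UMIs, held 72.8% of Tgfb3, 67.0% of Tgfb2, 43.1% of Bmp4 and 38.9% of Inhba. Macrophage-like cells, with 29.8% of UMIs, held 47.4% of Inhba, 34.0% of Tgfb1 and 31.3% of Gdf15, but under 1% of Bmp4, Bmp6 and Tgfb2. Shares of UMIs follow the number and depth of the cells in these libraries, so the levels that follow are given per UMI of each class.

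**Figure D1:**
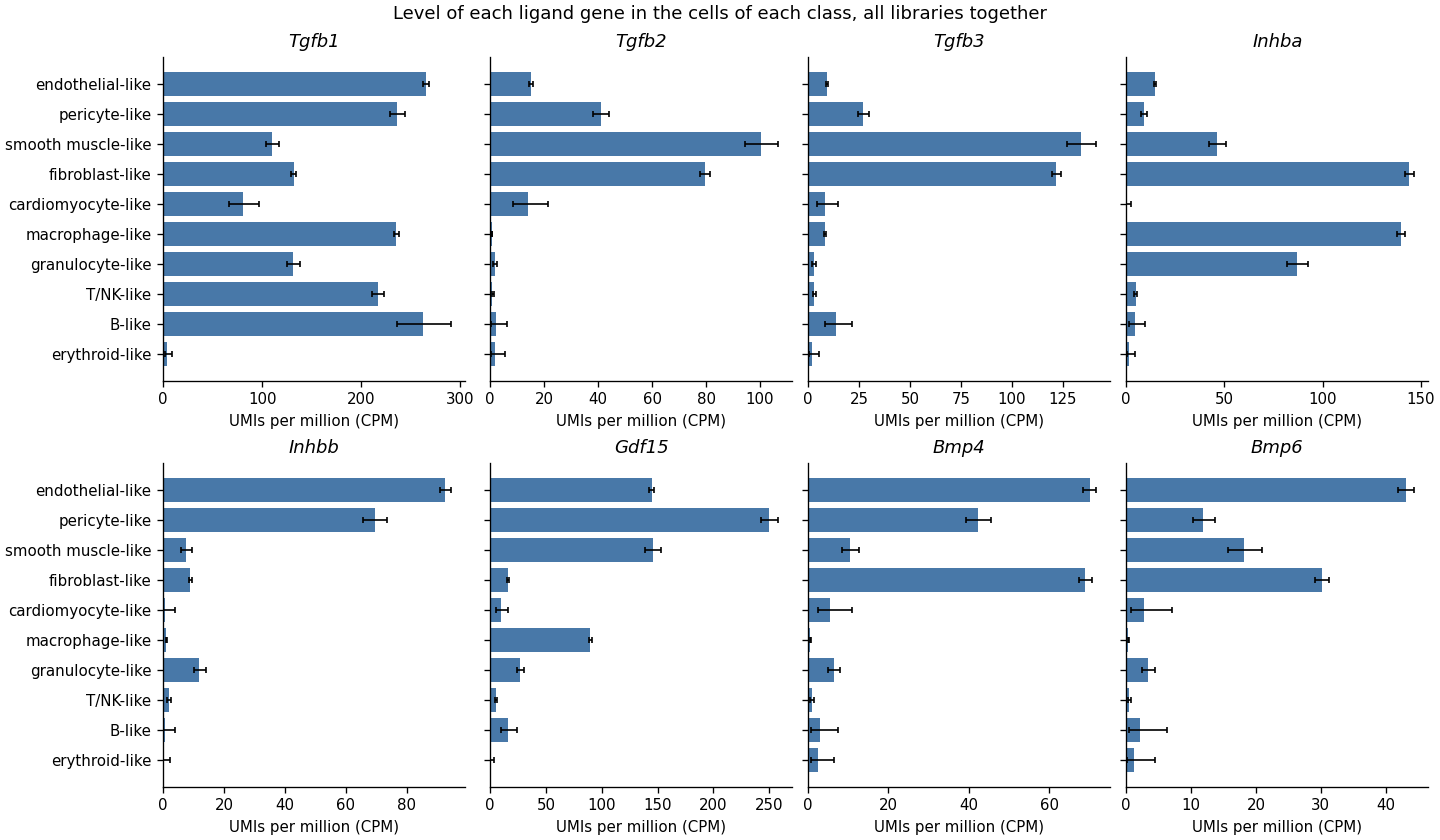
Level of each ligand gene in 10 cell classes, all libraries together. The horizontal axis is CPM and starts at 0 in each panel, on a scale of its own; bars are pooled levels and lines are 95% exact Poisson intervals. Tgfb1 is high in all classes but the erythroid-like, Inhbb is high in endothelial-like and pericyte-like cells, at 92.8 and 69.5 CPM, and Inhba in fibroblast-like and macrophage-like cells, at 144 and 140.0 CPM.

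Tgfb1, which encodes the isoform most tied to immune cells and scarring, was found in every class. Its level was 265 CPM (262 to 268) in endothelial-like, 262 CPM (236 to 291) in B-like, 237 CPM (229 to 244) in pericyte-like and 236 CPM (233 to 238) in macrophage-like cells. Neighbours in this pooled order had overlapping intervals, and the order turned by library: macrophage-like cells were above endothelial-like cells in libraries 1, 2 and 4 and within 1 CPM of them in library 3, and without library 4 they led with 323 CPM. T/NK-like cells followed at 217 CPM (211 to 223). Levels were lower in fibroblast-like cells, at 132 CPM, in granulocyte-like cells, at 132 CPM, in smooth muscle-like cells, at 110.3 CPM, and in cardiomyocyte-like cells, at 80.4 CPM. Erythroid-like cells, which should hold little but globin transcripts, had 4.36 CPM. At least 1 Tgfb1 UMI was seen in 84.7% of macrophage-like, 59.2% of endothelial-like and 2.62% of erythroid-like cells, whose median depths were 14222, 4729 and 6971 UMIs. After thinning every cell to 1000 UMIs the shares were 21.1%, 22.0% and 0.901%.

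Between libraries, Tgfb1 varied by less than a ratio of 2 in endothelial-like and macrophage-like cells. Macrophage-like cells held 299, 359, 295 and 200.3 CPM in libraries 1 to 4, and endothelial-like cells held 254, 263, 296 and 169 CPM. Library 4 was the lowest in both classes. T/NK-like cells held 257, 164.5, 265 and 214 CPM, with the lowest value in library 2, whose T/NK-like cells carried the markers of other classes. Fibroblast-like cells were the exception, at 59.7, 117, 176 and 173 CPM, a ratio of 2.95 (95% interval 2.80 to 3.12, counting only) between libraries 3 and 1. Different clusters made up the fibroblast-like class in each library, led by Clec3b in library 1, Prg4 in library 2, Cilp in library 3 and Timp1 in library 4. Among subclusters, NK-like cells of library 4 held the most, 424 CPM, beside 323 CPM in the smaller cycling subcluster, 185 CPM in the larger one and 181 CPM in CD4 T-like cells of the same library. NK-like cells of library 1 held 341 CPM.

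Tgfb2 and Tgfb3, whose products act in heart development and on mesenchymal cells, were genes of the mural and stromal cells. Tgfb2 was highest in smooth muscle-like cells, at 100.4 CPM (94.4 to 107), then in fibroblast-like, at 79.6 CPM (77.9 to 81.3), and pericyte-like cells, at 41.0 CPM (38.0 to 44.2). Tgfb3 followed nearly the same order, with 134 CPM (127 to 141) in smooth muscle-like, 122 CPM (119.7 to 124) in fibroblast-like and 27.1 CPM (24.6 to 29.7) in pericyte-like cells. The order of smooth muscle-like and fibroblast-like cells was not the same in every library. For Tgfb3, fibroblast-like cells were higher in libraries 1 and 3 and smooth muscle-like cells in library 2, and without library 2 the pooled levels were 147 CPM in fibroblast-like and 119 CPM in smooth muscle-like cells. For Tgfb2, smooth muscle-like cells were higher in libraries 2 and 3 and fibroblast-like cells in library 1. Endothelial-like cells held 15.04 CPM of Tgfb2 and 9.36 CPM of Tgfb3. Macrophage-like cells held 0.693 CPM of Tgfb2, at a level where T/NK-like cells had 0.825 CPM, but 8.07 CPM of Tgfb3 against 3.10 CPM in T/NK-like cells.

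Of the UMIs of the 3 TGF-beta genes together, Tgfb1 made up 96.4% in macrophage-like, 98.2% in T/NK-like and 91.6% in endothelial-like cells. Its share was 77.7% in pericyte-like cells and 39.5% in fibroblast-like cells, where Tgfb3 made up 36.6% and Tgfb2 23.9%. The libraries of fibroblast-like cells differed widely: the Tgfb1 share was 21.0%, 64.0%, 36.4% and 70.1% in libraries 1 to 4, and the Tgfb3 share was 37.8%, 6.96%, 47.5% and 9.21%. In smooth muscle-like cells Tgfb3 made up 38.9%, beside 32.0% for Tgfb1 and 29.1% for Tgfb2. That lead came from library 2, where Tgfb3 made up 45.6%. In library 1 Tgfb3 and Tgfb2 made up 35.8% and 35.0%, and in library 3 Tgfb1 made up the most, 36.2%. The exact intervals of the pooled Tgfb1 share did not overlap between macrophage-like, endothelial-like, pericyte-like, fibroblast-like and smooth muscle-like cells.

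**Figure D2:**
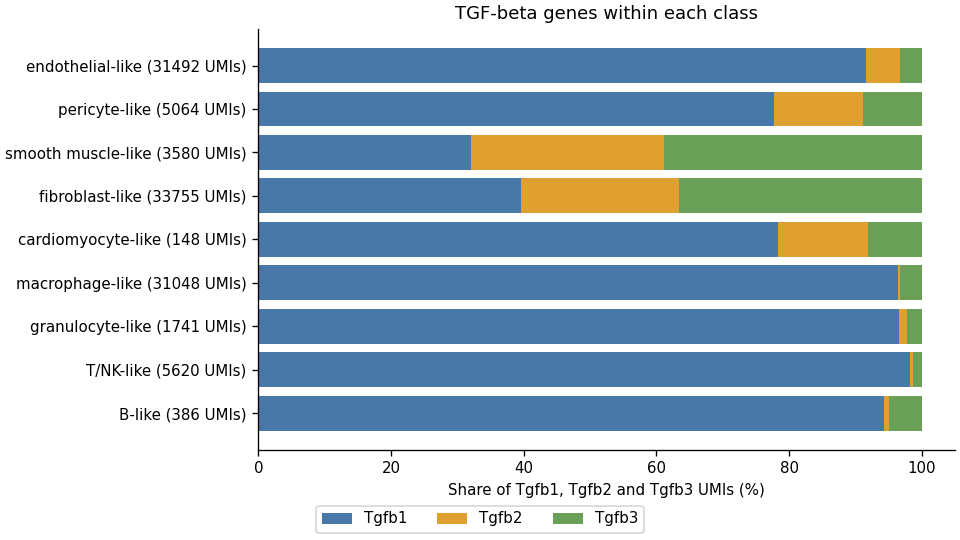
Share of the UMIs of Tgfb1, Tgfb2 and Tgfb3 in each of 9 classes, in percent of their sum, with that sum in the axis label; erythroid-like cells, with 13 such UMIs, are left out. Tgfb1 takes over 90% in endothelial-like, macrophage-like, granulocyte-like, T/NK-like and B-like cells, and 39.5% and 32.0% in fibroblast-like and smooth muscle-like cells with all libraries pooled; in fibroblast-like cells it ran from 21.0% to 70.1% by library.

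In fibroblast-like cells Tgfb3 was 107, 12.7, 230.3 and 22.7 CPM in libraries 1 to 4, so that libraries 1 and 3 lay far above libraries 2 and 4. The ratio of library 3 to library 2 was 18.2 (16.1 to 20.6). Tgfb2 in the same cells was 117, 52.9, 78.1 and 51.0 CPM, in which the same pair of libraries was higher but by less. Smooth muscle-like cells, of which libraries 1 to 3 held at least 50, went the other way for Tgfb3, with 97.0, 196 and 105 CPM, and held 94.9, 107 and 101 CPM of Tgfb2 with overlapping intervals. In the subclusters, Tgfb3 reached 186 and 226 CPM, in libraries 1 and 3, in the first activated fibroblast-like subcluster, led by C1qtnf3 and Cilp, and 236 and 277 CPM in the second, led by Ddah1. In resting fibroblast-like cells of the same libraries it was 62.8 and 63.4 CPM, and in the Prg4 stromal-like subcluster of library 2 it was 12.2 CPM. Within 1 library, therefore, activated fibroblast-like cells held more Tgfb3 than resting ones in both libraries that had both, with 50 resting cells in library 3. Unnamed fibroblast subclusters of libraries 1 and 3 held it as well. It was 151 and 207 CPM in that led by Cpz, where 1 of 6 resting fibroblast markers counted. In that led by Ptgds it was 104 and 135 CPM.

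Outside the stroma, Tgfb2 was uneven among endothelial subclusters. The named ones left out most endothelial-like cells of libraries 1 and 3, which lay in unnamed subclusters. Arterial endothelial-like cells held 109.9 and 72.7 CPM in libraries 1 and 3, seen in 27 of 105 and 77 of 318 cells, but 12.6 CPM in library 2, from 9 UMIs. Lymphatic endothelial-like cells held 99.0 and 103 CPM of Tgfb2 in libraries 1 and 3, with 73.2 and 52.7 CPM of Tgfb3. An unnamed endothelial subcluster led by Il6 and Tnfsf9 held 84.3 CPM of Tgfb2 in library 1, from 282 of the 619 Tgfb2 UMIs of endothelial-like cells there, and 17.8 CPM in library 3. Venous endothelial-like cells held 13.7, 6.74 and 44.2 CPM of Tgfb2 in libraries 1 to 3. In lymphatic endothelial-like cells, 38 of 82 cells of library 1 had a Tgfb3 UMI.

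Inhba, the gene of the activin A subunit, was a gene of fibroblast-like cells, at 144 CPM (142 to 147), and of macrophage-like cells, at 140.0 CPM (138 to 142), whose intervals just overlap. Granulocyte-like cells held 87.2 CPM (82.1 to 92.4), smooth muscle-like cells 46.3 CPM (42.3 to 50.7) and endothelial-like cells 14.7 CPM (14.0 to 15.4). T/NK-like cells held 4.76 CPM, and no Inhba UMI was seen in 379 cardiomyocyte-like cells, which allows up to 0.792% of such cells to show a UMI at their median depth of 2709 UMIs and does not bound the share that express the gene. Of these 379 cells, 330 came from library 1. An unnamed cluster of low depth, 865 cells with 7 of 8 cardiomyocyte markers, held 19.4 CPM of Inhba (12.1 to 29.3) from 22 UMIs. An Inhba UMI was present in 26.5% of macrophage-like and 33.0% of fibroblast-like cells, against 4.66% of T/NK-like cells; the median depths were 14222, 15686 and 8447 UMIs. Thinned to 1000 UMIs, the shares were 8.68%, 5.77% and 0.705%.

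The class level of Inhba hid a wide contrast between libraries. Macrophage-like cells held 3.36, 411, 3.42 and 129 CPM in libraries 1 to 4. Libraries 2 and 4 were high and libraries 1 and 3 were close to 0, with a ratio of 122 (80.7 to 195) between libraries 2 and 1. The 6089 Inhba UMIs of library 2 came from 42.4% of its 998 macrophage-like cells, and 49 of these cells held 50% of them, whereas 193 cells held 50% of the Tgfb1 UMIs. Fibroblast-like cells had the same order without the floor: 22.2, 468, 52.1 and 157 CPM, with 59.2% of the 811 fibroblast-like cells of library 2 positive. Of their 9698 Inhba UMIs in library 2, 9624 lay in the Prg4 stromal-like subcluster, where 30 of 772 cells held 50%. The cluster led by Prg4 met 3 of 8 fibroblast markers. With library 2 left out, the level in fibroblast-like cells was 61.1 CPM. Smooth muscle-like cells held 27.8, 85.4 and 22.8 CPM in libraries 1 to 3, again with library 2 highest. The T/NK-like cells of library 2 held 14.96 CPM (7.47 to 26.8), beside 411, 468 and 89.4 CPM in macrophage-like, fibroblast-like and granulocyte-like cells of that library.

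Most Inhba in macrophage-like cells came from subclusters of 1 library. The Arg1 macrophage-like subcluster, 713 of its 733 cells in library 2, held 496 CPM. The first inflammatory macrophage-like subcluster, led by Nos2, had 2115 of 2117 cells in library 4 and held 271 CPM, and the second held 140.2 CPM. Infiltrating monocyte-like cells of library 4, led by Ly6c2, held 58.8 CPM, and mature dendritic-like cells 27.0 CPM. In the subcluster led by Gdf15 and Fcrls, which made up most macrophage-like cells of libraries 1 and 3, Inhba was 2.75 and 2.61 CPM. Resident macrophage-like cells of library 2 held 30.9 CPM, beside 496 CPM in the Arg1 macrophage-like cells of the same library, so a contrast was also present within a library.

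A further group that held Inhba was small. In the venous endothelial-like subcluster, led by H19, Ptgs2 and Npr3, a gene known from endocardium, Inhba was 181, 629 and 74.5 CPM in libraries 1 to 3, against 0 to 14.9 CPM in the other named endothelial subclusters. Much of it lay in very few cells. Only 1 of 106 cells held 50% of the 172 UMIs in library 1, and 3 of 120 cells held 50% of the 840 UMIs in library 2, although 11 and 29 cells had at least 1 UMI. The Poisson intervals are too narrow for such values.

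An unnamed cluster of library 4 led by Trim30c, with 5 of 6 granulocyte markers, held 237 CPM of Inhba and 112 CPM of Tgfb1, but 2.99 CPM or less of each of the other 6 ligand genes. Granulocyte-like cells proper held 24.1, 89.4 and 61.1 CPM of Inhba in libraries 1 to 3, the first from 10 UMIs.

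**Figure D3:**
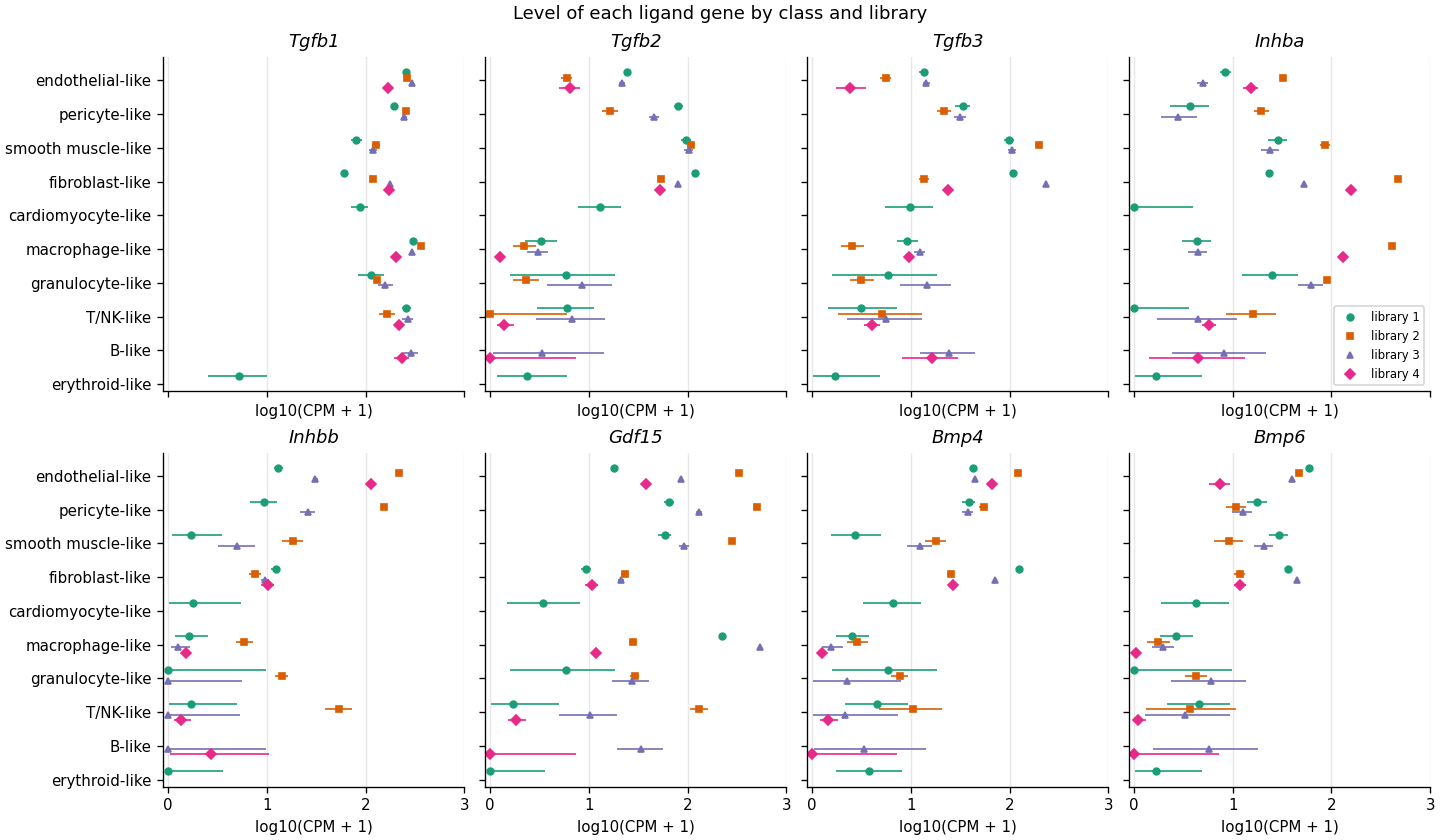
Level of each ligand gene by class and library. The horizontal axis is log10(CPM + 1); points are the 4 libraries, where at least 50 cells of a class were present, and lines are 95% exact Poisson intervals. Tgfb1 points lie close together in endothelial-like and macrophage-like cells but run from 59.7 to 176 CPM in fibroblast-like cells, while Inhba in macrophage-like cells spans 3.36 to 411 CPM, and Gdf15 in the same cells spans 10.9 to 545 CPM with the libraries in another order.

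Inhbb, which encodes the subunit of activin B, was held by endothelial-like cells, at 92.8 CPM (91.0 to 94.6), and pericyte-like cells, at 69.5 CPM (65.5 to 73.6). The pericyte-like class carried 3651.5 to 4457 CPM of endothelial markers in libraries 1 to 3, and the part of those transcripts in its Inhbb was not tested. Granulocyte-like cells held 11.9 CPM, fibroblast-like cells 8.97 CPM and macrophage-like cells 0.992 CPM. Macrophage-like cells thus held 140.0 CPM of Inhba with 0.992 CPM of Inhbb. Endothelial-like cells held more Inhbb than Inhba UMIs in every library, 317 beside 195 in library 1 and 7691 beside 1127 in library 2, but in their venous endothelial-like subcluster Inhba was above Inhbb in libraries 1 and 2.

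Between libraries, Inhbb in endothelial-like cells was 12.1, 216, 30.03 and 111 CPM, a ratio of 17.9 (16.0 to 20.1) between libraries 2 and 1. Libraries 2 and 4 were again above libraries 1 and 3. Pericyte-like cells held 8.27, 154 and 24.9 CPM in libraries 1 to 3, in the same order. T/NK-like cells of library 2 held 53.0 CPM of Inhbb (37.7 to 72.5), and smooth muscle-like and granulocyte-like cells of library 2 held 17.3 and 13.2 CPM, where the part of endothelial transcripts was not tested. In the subclusters, capillary endothelial-like cells of library 2 held 236 and 230 CPM, venous endothelial-like cells 50.5, 140.0 and 79.1 CPM in libraries 1 to 3, and the interferon-activated endothelial-like subcluster of library 4, led by Ubd, 112 CPM. Capillary endothelial-like subclusters were named in library 2 only. Most endothelial-like cells of libraries 1 and 3 fell in unnamed subclusters led by Aplnr, Isg15 and Il6. These held 8.86, 8.80 and 20.6 CPM of Inhbb in library 1 and 20.5, 5.45 and 35.6 CPM in library 3. Arterial endothelial-like cells of library 1 had no Inhbb UMI in 105 cells, which allows up to 2.86% of such cells to show a UMI, and those of libraries 2 and 3 held 70.2 and 26.2 CPM. Endothelial-like cells of the 4 libraries fell into different clusters: 1 led by Aplnr held most in libraries 1 and 3, others led by Timp4 and Ctla2a those of library 2, and another led by Ubd those of library 4.

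Gdf15, whose product is a circulating marker of cardiac and other stress, was highest among the named classes in pericyte-like cells, at 250.1 CPM (243 to 258), with all libraries pooled. Of the 3 libraries with at least 50 pericyte-like cells, this order held in library 2 alone: in libraries 1 and 3 macrophage-like cells were above pericyte-like cells, at 220.0 and 545 CPM beside 63.5 and 129 CPM, and without library 4 macrophage-like cells led with 283 CPM. An unnamed cluster of library 2, led by Gm26870, held 260.6 CPM, with a Gdf15 UMI in 53.8% of 1030 cells and at most 6 in 1 cell. Its leading genes also included Cxcl5, Prg4 and Timp4, and it held 187 CPM of Inhba and 104 CPM of Inhbb. Among the named classes, smooth muscle-like and endothelial-like cells came next for Gdf15, at 146 CPM (138 to 153) and 145 CPM (143 to 147), with overlapping intervals. Macrophage-like cells held 89.9 CPM (88.2 to 91.5). Fibroblast-like cells held 15.8 CPM, cardiomyocyte-like cells 9.71 CPM from 14 UMIs, and T/NK-like cells 4.87 CPM. The unnamed low-depth cluster with 7 of 8 cardiomyocyte markers held 54.6 CPM (41.8 to 69.9) from 62 UMIs. A Gdf15 UMI was seen in 23.1% of pericyte-like, 13.6% of endothelial-like and 2.57% of T/NK-like cells, whose median depths were 5982, 4729 and 8447 UMIs. After thinning to 1000 UMIs the shares were 7.80%, 5.83% and 0.434%.

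Its order of libraries depended on the class. In vascular cells library 2 was highest: 17.2, 329, 84.5 and 37.2 CPM in endothelial-like cells of libraries 1 to 4, 63.5, 503 and 129 CPM in pericyte-like cells of libraries 1 to 3, and 57.7, 280.1 and 91.0 CPM in smooth muscle-like cells. Macrophage-like cells held 220.0, 27.2, 545 and 10.9 CPM, so that libraries 1 and 3 were high and libraries 2 and 4 low, the reverse of Inhba in the same cells. The ratio of library 3 to library 4 was 50.02 (46.8 to 53.5). The T/NK-like cells of library 2 held 131 CPM of Gdf15 (106 to 159), more than the macrophage-like and granulocyte-like cells of that library, at 27.2 and 28.1 CPM, and less than its endothelial-like, pericyte-like and smooth muscle-like cells.

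Gdf15 UMIs were uneven from cell to cell. In macrophage-like cells of library 3, 45.5% of 1138 cells had a UMI, and 62 cells held 50% of the 8589 UMIs, while 245 cells held 50% of the 4657 Tgfb1 UMIs. In endothelial-like cells of library 2, 106 of 5629 cells held 50% of 11748 UMIs. In pericyte-like cells of library 2, 17 of 584 cells held 50% of 3168 UMIs. As a mean over cells of all libraries, the level was 142 CPM in pericyte-like, 131 CPM in endothelial-like and 121 CPM in smooth muscle-like cells. Up to 263 UMIs of Gdf15 came from 1 cell, in lymphatic endothelial-like cells of library 3.

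The macrophage subcluster led by Gdf15 itself, with Fcrls, Ms4a7, Apoe and Trem2, genes of resident and lipid-handling macrophages, held 259.9 CPM in 361 cells of library 1 and 597 CPM in 975 cells of library 3. It was left unnamed, since only 2 of 8 resident macrophage markers counted. Resident macrophage-like cells of library 2 held 98.1 CPM, beside 13.5 CPM in the Arg1 macrophage-like cells and 131 CPM in the T/NK-like cells of that library, and 5 of the 267 resident macrophage-like cells held 50% of their 238 UMIs. Inflammatory macrophage-like cells of library 4 held 3.56 and 5.18 CPM, and a subcluster of library 4 led by Ccl8 held 51.8 CPM. Among endothelial subclusters, arterial endothelial-like cells held 4.49, 792 and 98.1 CPM in libraries 1 to 3 and lymphatic endothelial-like cells 64.6 and 585 CPM in libraries 1 and 3. Of the 792 CPM, 3 of 78 cells held 50%, and of the 585 CPM, 2 of 73 cells did. The first capillary endothelial-like subcluster of library 2 held 419 CPM and the second 135 CPM. Venous endothelial-like cells held 5.26, 24.7 and 16.3 CPM, the lowest of the named endothelial subclusters in libraries 2 and 3.

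**Figure D4:**
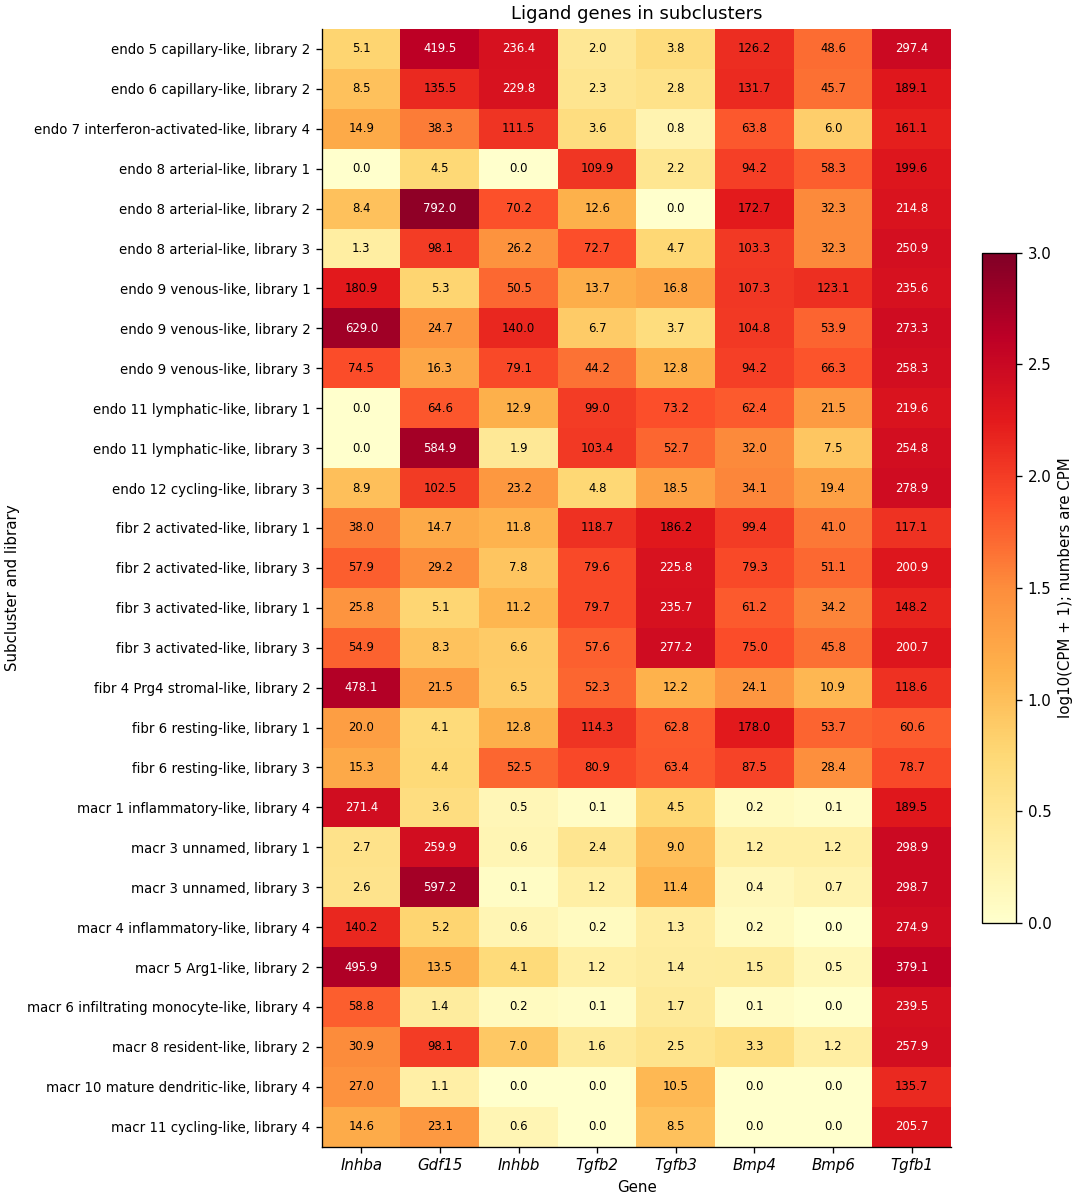
Level of the ligand genes in the named endothelial, fibroblast and macrophage subclusters and in macrophage subcluster 3, which was led by Gdf15 and Fcrls, for each library with at least 50 of its cells. Colour is log10(CPM + 1) and the numbers are CPM. The other unnamed subclusters, with most endothelial-like cells of libraries 1 and 3, are not shown. Inhba is high in the Arg1 macrophage-like, inflammatory macrophage-like, Prg4 stromal-like and venous endothelial-like rows, and Gdf15 in other rows, with 597 CPM in macrophage subcluster 3 of library 3.

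Bmp4 and Bmp6, genes of bone morphogenetic proteins, were shared by endothelial-like and fibroblast-like cells. Bmp4 was 70.1 CPM (68.5 to 71.7) in endothelial-like and 68.9 CPM (67.3 to 70.6) in fibroblast-like cells, with overlapping intervals, then 42.4 CPM in pericyte-like and 10.4 CPM in smooth muscle-like cells. Bmp6 was 43.1 CPM (41.9 to 44.4) in endothelial-like, 30.1 CPM (29.1 to 31.2) in fibroblast-like, 18.2 CPM in smooth muscle-like and 11.9 CPM in pericyte-like cells. Macrophage-like cells held 0.559 CPM of Bmp4 and 0.323 CPM of Bmp6.

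Bmp4 in endothelial-like cells was 41.8, 120.1, 44.0 and 65.5 CPM in libraries 1 to 4, with library 2 highest, and in fibroblast-like cells 123, 24.4, 70.4 and 25.6 CPM, with libraries 1 and 3 highest. Bmp6 in fibroblast-like cells split the libraries the same way, at 35.5, 10.8, 44.1 and 10.98 CPM. In endothelial-like cells Bmp6 was 58.1, 45.4, 38.7 and 6.36 CPM, so that library 4 alone was low, with a ratio of 9.13 (6.94 to 12.2) between libraries 1 and 4. The endothelial-like cells of library 4 were nearly all of the interferon-activated endothelial-like subcluster, in which Bmp6 was 6.01 CPM while Bmp4 was 63.8 CPM. Resting fibroblast-like cells held 178 CPM of Bmp4 in library 1, above the 99.4 CPM of the first activated fibroblast-like subcluster. In library 3, with 50 resting fibroblast-like cells, the 2 values were close, at 87.5 and 79.3 CPM. Arterial endothelial-like cells held 94.2, 173 and 103 CPM of Bmp4, and venous endothelial-like cells 107, 105 and 94.2 CPM, the latter with 123, 53.9 and 66.3 CPM of Bmp6.

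The genes whose levels were most like each ligand gene over 30 named classes and subclasses were sought among 7758 genes that reached 50 CPM in 1 of them. The points share libraries and depth, and some subclasses lie within a class, so Pearson's r of log2(CPM + 10) is a description only. For Inhba they were Ptgs2, the inducible cyclooxygenase (r = 0.865), the arginine transporter gene Slc7a2 (r = 0.771) and the chemokine gene Ccl2 (r = 0.769). In macrophage-like cells Ptgs2 was 152, 1008.5, 124 and 539 CPM in libraries 1 to 4, and Ccl2 was 511, 4496, 510.2 and 653 CPM. For Gdf15 they were Epha2 (r = 0.861) and the heat shock genes Hspa1b (r = 0.851) and Hspa1a (r = 0.846). Hspa1a in pericyte-like cells was 1484.5, 2214 and 2016 CPM in libraries 1 to 3, and in macrophage-like cells it was 718, 874, 1057 and 158 CPM in libraries 1 to 4, where library 2, the second highest in Hspa1a, was low in Gdf15.

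For Inhbb the most alike genes were the ceramidase gene Acer2 (r = 0.950), Cyp4b1 (r = 0.939) and Plxna2 (r = 0.931). Acer2 in endothelial-like cells was 57.4, 128, 43.6 and 130.1 CPM in libraries 1 to 4, with libraries 2 and 4 above the others as for Inhbb. For Bmp4 they were basement membrane genes, Lamb1 (r = 0.950), Hspg2 (r = 0.949) and Nid1 (r = 0.944), and for Bmp6 they were Phlda3 (r = 0.931), Auts2 (r = 0.930) and Cyp2d22 (r = 0.923). Tgfb3 was most like Col4a5 (r = 0.932), Neo1 (r = 0.927) and Dact3 (r = 0.919), Tgfb2 like Kank2 (r = 0.916), Tmem100 (r = 0.912) and 1700027J19Rik (r = 0.911), and Tgfb1 like Rap1gds1 (r = 0.893), Rhoa (r = 0.869) and CAAA01118383.1 (r = 0.866).

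Of 70 other genes of the pathway, 38 reached 50 CPM and 53 reached 10 CPM in at least 1 named class. Of the 30905 genes of the matrix, 7758 reached 50 CPM in at least 1 of the 30 named classes and subclasses, ligand and mitochondrial genes not counted. That is a larger set of groups than the named classes. The share of all genes in the named classes alone was not counted, so these counts and those by role below describe the list alone. Among 12 other ligand genes, 1 reached 50 CPM, Bmp2, at 67.3 CPM in smooth muscle-like cells. Gdf11 and Bmp5 reached 30.4 and 19.1 CPM in the same class and Gdf6 17.0 CPM in fibroblast-like cells. In endothelial-like cells Bmp2 was 7.98, 14.4, 16.9 and 117 CPM in libraries 1 to 4, and the high value was that of the library in which Bmp6 was low.

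The type II receptor genes Tgfbr2 and Bmpr2 were highest in fibroblast-like cells, at 182 CPM, and in pericyte-like cells, at 171 CPM, and the activin receptor genes Acvr2b and Acvr2a at 19.7 CPM in smooth muscle-like and 19.6 CPM in endothelial-like cells. Of 7 type I receptor genes, Acvrl1 (ALK1) reached 142 CPM in endothelial-like, Bmpr1a 104 CPM in smooth muscle-like, Tgfbr1 72.6 CPM in granulocyte-like and Acvr1 39.2 CPM in fibroblast-like cells. The granulocyte-like cells were mostly of library 2. Acvrl1 was not confined to endothelial-like cells: 7 named classes held at least 10 CPM. It was 134.5 CPM in pericyte-like cells and 30.6 to 139.4 CPM in the macrophage-like clusters. The pericyte-like class also carried endothelial markers, and the part of such transcripts in its Acvrl1 and Bmpr2 was not tested. Endoglin, a coreceptor encoded by Eng, reached 725 CPM in endothelial-like cells, Tgfbr3 92.8 CPM in fibroblast-like, Rgmb 24.1 CPM in endothelial-like and Ret 8.66 CPM in fibroblast-like cells. Gfral, named here after its values were seen, had 1 UMI each in granulocyte-like, cardiomyocyte-like and B-like cells and none in the other 7 named classes. In macrophage-like cells Tgfbr2 was 128, 28.9, 144 and 32.8 CPM in libraries 1 to 4, so that the libraries high in Inhba were low in Tgfbr2 and those high in Gdf15 were high in it.

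Among 12 genes of latency and activation, 10 reached 50 CPM. Thrombospondin 1, which can free TGF-beta from its latent complex and is encoded by Thbs1, reached 3320 CPM in granulocyte-like cells, and in macrophage-like cells it was 601, 4566, 427 and 248 CPM in libraries 1 to 4. Since 2756 of the 3117 granulocyte-like cells were of library 2, their pooled level is nearly that of 1 library. Fbn1, Ltbp4 and Ltbp2, which encode matrix proteins, were highest in fibroblast-like cells, at 849, 752 and 338 CPM. The cell-surface anchors of latent TGF-beta lay in different classes: Lrrc32 at 337 CPM in smooth muscle-like and 2.72 CPM in macrophage-like cells, and Nrros at 172 CPM in macrophage-like and 9.05 CPM in smooth muscle-like cells. Lrrc32 and Nrros were named after their values were seen.

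Of 9 extracellular inhibitors, 4 reached 50 CPM. Follistatin, the activin-binding protein encoded by Fst, was at 89.5 CPM in fibroblast-like cells, with 63.2, 105, 71.8 and 163 CPM in libraries 1 to 4, and at 8.22 CPM or less in the other 9 named classes. Twsg1 and Bmper were highest in fibroblast-like cells too, at 77.0 and 53.8 CPM, and Fstl3 was highest in smooth muscle-like cells, at 54.6 CPM. In macrophage-like cells, the other main holders of Inhba, Fst was 2.02 CPM with all subclusters pooled. By subcluster it was 13.9 CPM in Arg1 macrophage-like cells and 0.829 and 0.362 CPM in the inflammatory macrophage-like subclusters, all of them high in Inhba.

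Of 6 Smad genes, Smad1, Smad4, Smad5 and Smad2 were highest in endothelial-like cells, at 172, 89.3, 86.0 and 31.0 CPM. Of 7 intracellular inhibitors 6 reached 50 CPM, led by Skil and Ski in granulocyte-like cells, at 419 and 209.6 CPM, and by Smad7 and Bambi in smooth muscle-like cells, at 205 and 78.5 CPM. As for Thbs1, the granulocyte-like levels of Skil and Ski come mostly from library 2. Of 8 target genes 7 reached 50 CPM: Id3 at 2418 CPM in smooth muscle-like, Tgfbi at 1409 CPM in macrophage-like, and Pmepa1 and Ctgf at 1132.5 and 1062 CPM in fibroblast-like cells. Pmepa1 in fibroblast-like cells was 666, 927, 1623 and 1027.5 CPM in libraries 1 to 4, highest in library 3 and lowest in library 1. Tgfb3 was highest in library 3 too, but higher in library 1 than in libraries 2 and 4. Tgfb1 in these cells was also highest in library 3, at 176 CPM, and lowest in library 1, at 59.7 CPM. Ctgf was 189, 1573, 1601 and 591 CPM, high in library 2 as well, where Tgfb3 was low. Tgfbi in macrophage-like cells was 781, 1436, 635 and 1587 CPM, high in libraries 2 and 4, the pair high in Inhba. The other 3 named targets are given by macrophage subcluster and not by library, so their groups of cells differ from those of Tgfbi. Most subclusters given were nearly of 1 library. Of the inflammatory macrophage-like subclusters, 2115 of 2117 and all 779 cells were of library 4. Of the 733 Arg1 macrophage-like cells, 713 were of library 2. The subcluster led by Gdf15 and Fcrls had 361 and 975 cells in libraries 1 and 3. In the subcluster led by Gdf15 and Fcrls, low in Inhba, Pmepa1, Id3 and Ctgf were 177.5, 148.9 and 20.4 CPM. They were 8.39, 38.3 and 3.66 CPM in the first inflammatory macrophage-like subcluster. In the second they were 6.15, 81.5 and 4.58 CPM, and in the Arg1 macrophage-like subcluster 47.0, 77.8 and 16.2 CPM. Among the subclusters given, all 3 genes were highest where Inhba was low, whereas Tgfbi was high in the libraries high in Inhba.

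**Figure D5:**
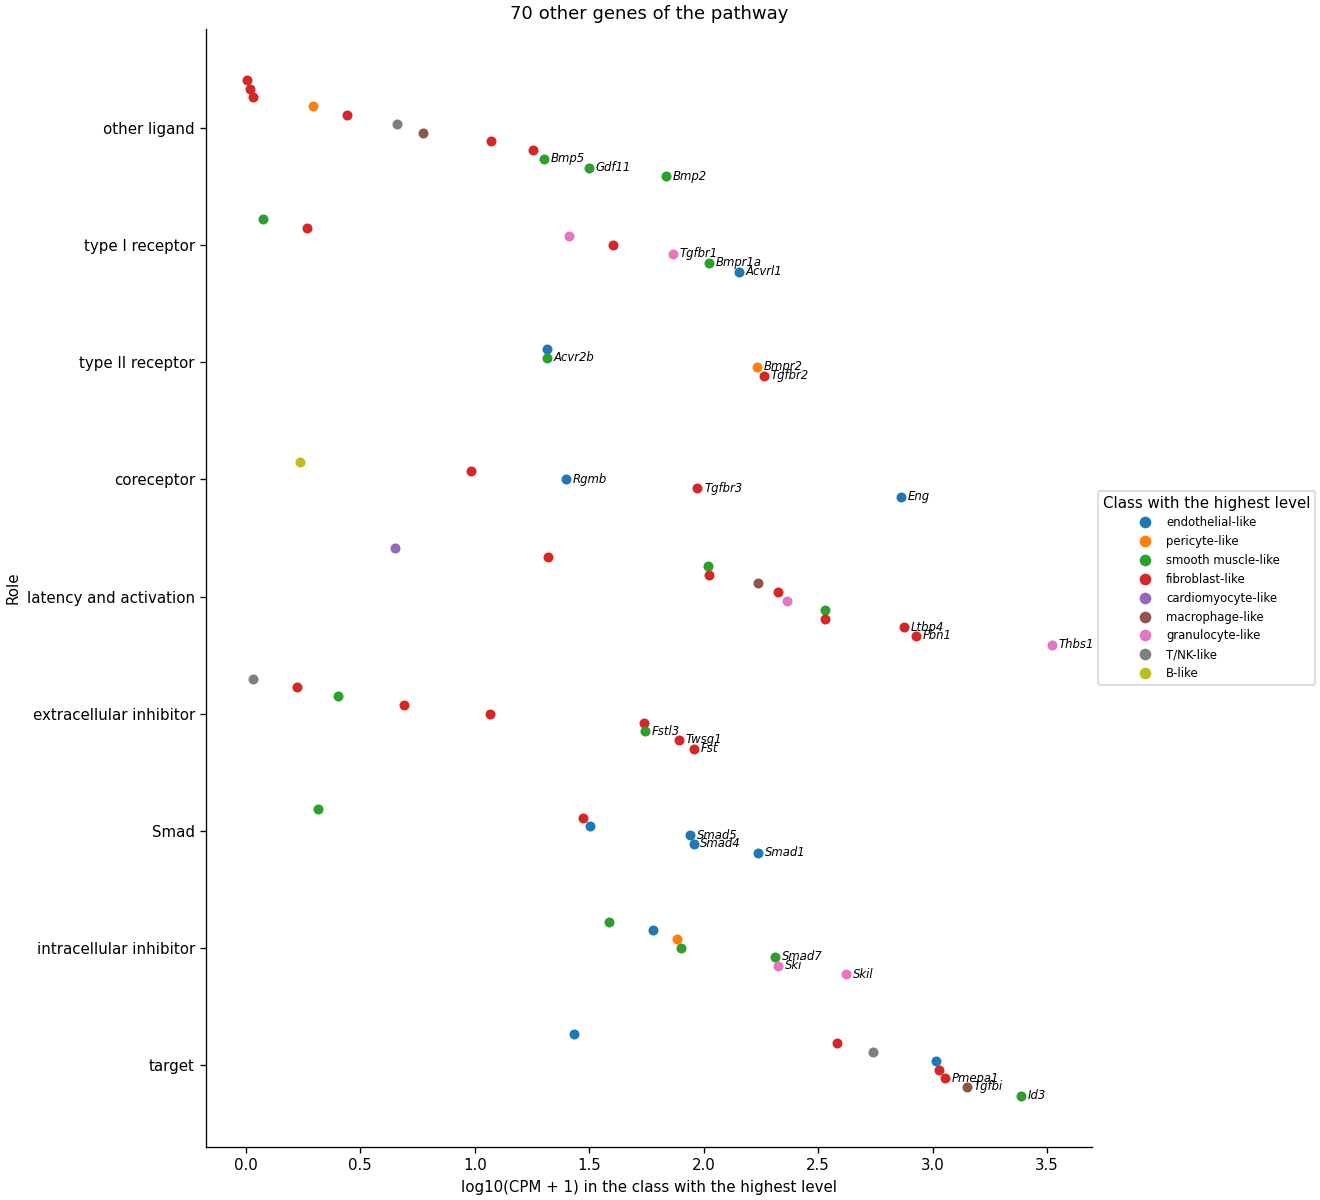
The 70 other genes of the pathway by role. Each point is a gene, placed at log10(CPM + 1) in the named class where its level was highest and coloured by that class; the 3 highest genes of each role are named. Among other ligands only Bmp2 passes 50 CPM, while 10 of 12 genes of latency and activation do. Thbs1 is the highest at 3320 CPM, in granulocyte-like cells, which were mostly of library 2. The share of all genes that pass 50 CPM in a named class was not counted. Over the 30 named classes and subclasses, 7758 of 30905 genes did, ligand and mitochondrial genes not counted.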

How the data were processed

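Single cells of day 5 heart grafts were measured with 10x Chromium 3' chemistry. The authors deposited 1 merged matrix of UMI counts, made with Cell Ranger 3.0.0 per the file headers. The submitters' processing notes also name CASAVA 1.8, Seurat and mm10. How the merged libraries were scaled or filtered before deposit is not given in the sources used here beyond these names, and the values are whole counts.

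A cell was used if it had over 200 genes and less than 20% of its UMIs from mitochondrial genes, and the 5% of each library with the highest simulated-doublet score were left out. Depth ran from 96020294 to 166079145 UMIs per library. Clusters came from 2000 variable genes, 10 principal components, a graph of 30 shared neighbours and Leiden clustering at resolution 0.8, with 0.5 within classes. A marker counted when at least 10% of a cluster's cells held it at 2 times the level of the rest, and a name needed 3 markers and no lead of another class among the top 10 genes. That subclass markers count among the top 10 genes was settled after the clusters were seen. A cluster with a median depth below 1/3 of that of its libraries also stayed unnamed if no marker of its class was in the top 10. This left 865 cells with 7 of 8 cardiomyocyte markers unnamed. Clustering used leidenalg 0.10.2, igraph 0.11.9 and scikit-learn 1.9.0, intervals used scipy 1.17.1, all under Python 3.11.15 with pandas 2.3.3 and numpy 2.4.6, and the scripts were tested on simulated data.

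Exact 95% intervals were taken from the Poisson distribution for CPM and by the Clopper-Pearson method for shares, and a count of 0 was read as up to 3. A library was shown for a class only with at least 50 of its cells. Named genes were the 8 ligand genes, up to 4 pathway genes per role with the highest level in a class, and the 3 genes most like each ligand gene. The members and all lists were chosen with earlier results of these data known. Other resolutions, numbers of components, filters, doublets kept, all variable genes, a mean over cells and leaving out each library were tried. No samples could be grouped, so allogeneic and syngeneic grafts were not compared.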

Additional observations from a re-analysis of the deposited data

How the results depend on the processing

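The level of each ligand gene in its leading class was recomputed under other settings. At resolution 0.4 it was 274 CPM for Tgfb1, 193 CPM for Gdf15 and 45.9 CPM for Bmp6, and at resolution 1.6 it was 148 CPM for Tgfb3, 96.0 CPM for Inhbb and 232 CPM for Gdf15. With 20 principal components it was 150.3 CPM for Tgfb3, 95.4 CPM for Inhbb, 277 CPM for Gdf15, 73.4 CPM for Bmp4 and 45.0 CPM for Bmp6. With the ligand and pathway genes kept among the variable genes it was 269 CPM for Tgfb1, 151 CPM for Tgfb3 and 96.0 CPM for Inhbb. With doublets kept it was 269 CPM for Tgfb1, 127 CPM for Tgfb3, 218 CPM for Gdf15 and 72.0 CPM for Bmp4. With at least 500 genes per cell it was 275 CPM for Tgfb1, 108 CPM for Tgfb2, 162 CPM for Tgfb3 and 46.3 CPM for Bmp6. As a mean over cells it was 252 CPM for Tgfb1, 89.4 CPM for Tgfb2, 124 CPM for Tgfb3, 100.8 CPM for Inhba, 88.7 CPM for Inhbb, 142 CPM for Gdf15, 62.5 CPM for Bmp4 and 47.4 CPM for Bmp6. For these changes the cause was not tested.

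Leaving out 1 library at a time gave 250.8 to 274 CPM for Tgfb1, 88.4 to 104 CPM for Tgfb2, 119 to 167 CPM for Tgfb3, 61.1 to 201 CPM for Inhba, 32.2 to 129 CPM for Inhbb, 101.8 to 338 CPM for Gdf15, 45.5 to 86.1 CPM for Bmp4 and 38.8 to 47.4 CPM for Bmp6. The lowest values of Inhba, Inhbb, Gdf15 and Bmp4 were those without library 2. The leading class stayed the same in all 10 other clusterings and subsets for Inhbb and Bmp6, in 9 for Tgfb2 and Gdf15, in 8 for Tgfb1, Inhba and Bmp4, and in 7 for Tgfb3. Without library 4, macrophage-like cells led for Tgfb1, Gdf15 and Inhba, and fibroblast-like cells for Tgfb3 and Bmp4. Without library 2, fibroblast-like cells led for Tgfb3 and Bmp4, and granulocyte-like cells for Inhba, at 173 CPM. Without library 3, B-like cells led for Tgfb1. At resolution 0.4, fibroblast-like cells led for Tgfb2 and Tgfb3. Cells of at least 2000 UMIs, a setting chosen after seeing the data, gave values within the counting intervals. Smooth muscle-like cells gave no value at resolution 0.4. No paired analysis was possible because no barcode suffix could be paired with a graft and no test was run.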
